A study of Mus musculus with 2 samples.

Results

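In dissociated mouse prostate tumour tissue, 69 of 15742 cells held at least 3 of 6 contractile genes together with no molecule of Epcam, Ptprc or Krt5, markers of epithelium, leukocytes and basal epithelium. The 6 genes were Acta2, Myh11, Tagln, Cnn1, Des and Actg2, each counted at a deposited natural log value of 1 or more, and only those 3 marker genes had to be at 0. These cells, labelled smooth muscle and mural cells and called contractile-gene cells here, were compared with 261 fibroblasts, which held Col1a2 and Dcn at 1 or more, fewer than 3 of the 6 genes and the same 3 genes at 0. Both classes were chosen on measured values, so every difference between them is a description and none was put to a test. The tissue came from R26 mTmG/hAR:Osr1 Cre/+ mice on a mixed C57BL/6 and 129S1/SvImJ background, in which Cre driven by Osr1 switches on the hARtg transgene and a membrane green fluorescent protein reporter (mGFP). All cells came from animals of this genotype, and no cells without the transgene were among those analysed here. The 2 samples were prostatic intraepithelial neoplasia (PIN) at 6 months of age and prostatic adenocarcinoma (PCa) at 12 months, each profiled in 1 droplet library that counts messenger RNA molecules from their 3' ends as unique molecular identifiers (UMIs). The number of animals behind each library is not given in the sources used here.

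The 2 samples stand in a single table, in which each cell barcode ends in 1 of 2 suffixes, here barcode set 1 (6332 cells) and barcode set 2 (9410 cells). No label ties a suffix to PIN or PCa, so values are given by set and no tissue is assigned. With 1 library in each set there was no replicate, and every 95% interval covers counting error only. Set 1 held 33 contractile-gene cells, 0.521% of its cells (95% exact binomial interval 0.359 to 0.731). Set 2 held 36, or 0.383% (0.268 to 0.529). Fibroblasts made up 1.23% of set 1 (78 cells) and 1.94% of set 2 (183 cells).

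Smooth muscle cells surround the glands and vessels of the prostate and contract through smooth muscle actin and myosin, with transcription of their contractile genes driven by serum response factor (SRF) and its partner myocardin at CArG boxes. Pericytes are mural cells that lie against the endothelium of small vessels within a shared basement membrane. They depend on platelet-derived growth factor from the endothelium, read by the receptor Pdgfrb, and on signalling through Notch3. Prostate smooth muscle and fibroblasts also send growth factors to the epithelium.

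Because SRF acts at CArG boxes and TEAD factors at the sequence CATTCC, both motifs were looked up on both strands in the 250 bases before the RefSeq start of each gene (mouse build GRCm38.p6). Promoters are shown for the genes on which the description below turns, in lower case 5' to 3' along the gene, with a motif match in capitals. Acta2, at chr19:34255374-34255623 on the minus strand, held CATTCC on its other strand from -146 to -141. Myl9, at chr2:156775214-156775463 on the plus strand, held a CArG box (CC, then 6 bases of A or T, then GG) from -161 to -152. Rgs5, at chr1:169655251-169655500 on the plus strand, held neither in this window.
Acta2: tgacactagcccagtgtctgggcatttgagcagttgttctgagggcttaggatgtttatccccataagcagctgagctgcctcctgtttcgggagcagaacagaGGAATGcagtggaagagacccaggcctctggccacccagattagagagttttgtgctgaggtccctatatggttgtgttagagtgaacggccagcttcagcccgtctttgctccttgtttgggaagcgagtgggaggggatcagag
Myl9: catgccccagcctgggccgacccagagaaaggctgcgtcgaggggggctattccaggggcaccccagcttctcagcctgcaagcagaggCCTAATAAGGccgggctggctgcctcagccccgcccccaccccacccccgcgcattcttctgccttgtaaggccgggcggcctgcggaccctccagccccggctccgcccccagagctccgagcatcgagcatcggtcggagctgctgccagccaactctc
Rgs5: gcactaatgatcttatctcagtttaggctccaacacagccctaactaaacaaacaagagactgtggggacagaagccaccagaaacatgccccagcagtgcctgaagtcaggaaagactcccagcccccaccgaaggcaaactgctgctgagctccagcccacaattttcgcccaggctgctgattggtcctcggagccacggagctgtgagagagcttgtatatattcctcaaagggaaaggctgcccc

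Over 32851 mouse promoters of this length, 1.47% held a CArG box and 12.6% held CATTCC. Of the 6 contractile genes of the rule, 3 had a promoter in the RefSeq table, and none of those held an exact CArG box while Acta2 held CATTCC. Only exact matches were counted throughout. The printed Acta2 sequence holds ccctatatgg and ccttgtttgg, each a single base away from a CArG box as defined here. Among 28 other contractile genes, 25 had a promoter and 5 of these (Myl9, Myl6, Ldb3, Vcl and Fhl1) held a CArG box. CATTCC stood in 10 of the 25. Of 15 pericyte genes, 10 had a promoter, none with a CArG box and 2 (Abcc9 and Vtn) with CATTCC. A match is a match of letters only, and no match says nothing of whether the factor acts on the gene.

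The contractile-gene cells were shallower than the series as a whole. Their median was 8858 UMIs in set 1 (lowest 2461, highest 23294) and 6929 in set 2 (2944 to 24029), against 17235 and 14824.5 over all cells. Fibroblasts had medians of 6876 and 4639. The summed depth behind the values below was 310724 UMIs in set 1 and 279181 in set 2, and a level is given in CPM, the UMIs of a gene per 1000000 UMIs of the summed cells. The median share of mitochondrial UMIs was 3.33% and 5.15%. The sets shared 67 barcodes, and 2 of the 69 cells carried a shared barcode. A further 19 cells held 3 or more of the 6 genes but also Epcam, Ptprc or Krt5 and were left out, 13 of 46 such cells in set 1 and 6 of 42 in set 2. Epcam was the gene present in 11 of those 13 and in 5 of those 6.

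Acta2, smooth muscle actin, and Tagln, the actin-binding protein SM22, passed the cut in every one of the 69 cells, while the remaining 4 genes of the rule were patchy. Acta2 ranged in set 1 from 183 CPM in the lowest cell over a median of 2099 to 26579 in the highest. In set 2 its range was 181 to 14315 CPM with a median of 2007. Cells that met the rule therefore differed widely in Acta2, with a similar median in each set. Tagln had a median of 3154 CPM in set 1 (458 to 21111) and 2822 in set 2 (175 to 14257). Myh11, the smooth muscle myosin heavy chain and the most selective marker of the contractile state, reached the cut in 15 of 33 and 18 of 36 cells. Its median was 80.2 CPM in set 1 (0 to 3049) and 151 in set 2 (0 to 1777). So the cells split between those with Myh11 and those that met the rule without it.

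Des, the intermediate filament desmin, reached the cut in 29 of 33 cells of set 1 and 25 of 36 of set 2, with medians of 485 and 255 CPM. Actg2, the enteric-type smooth muscle actin, reached it in 12 of 33 and 19 of 36. Cnn1, calponin, which binds actin and myosin, reached it in 8 of 33 and 5 of 36. The most frequent combination in set 1 was Acta2, Tagln and Des alone, in 15 cells, and 5 cells held all 6 genes. In set 2 the most frequent were Acta2, Myh11, Tagln and Des (8 cells) and Acta2, Tagln and Actg2 (8 cells), and 1 cell held all 6. Des was the most frequent of the 6 genes in fibroblasts, at the cut in 45 of 78 of set 1 and 60 of 183 of set 2.

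Summed over cells, Acta2 stood at 6095 CPM in set 1 (95% exact Poisson interval 5824 to 6376) and 3865 in set 2 (3638 to 4103), against 185 and 82.3 CPM in fibroblasts. Tagln stood at 6247 and 3664 CPM, against 484 and 380. Myh11 stood at 460 CPM in set 1 (388 to 542) and 269 in set 2 (211 to 337), while the fibroblasts of set 1 held no Myh11 UMI and those of set 2 held 1.08 CPM. Cnn1 stood at 132 and 86.0 CPM with no UMI in the fibroblasts of either set. Actg2 stood at 354 and 681 CPM against 1.74 and 1.08, and was the only gene of the 6 with a higher level in set 2. Des separated the classes least, at 792 and 297 CPM against 249 and 149. These differences follow from how the classes were chosen.

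**Figure D1:**
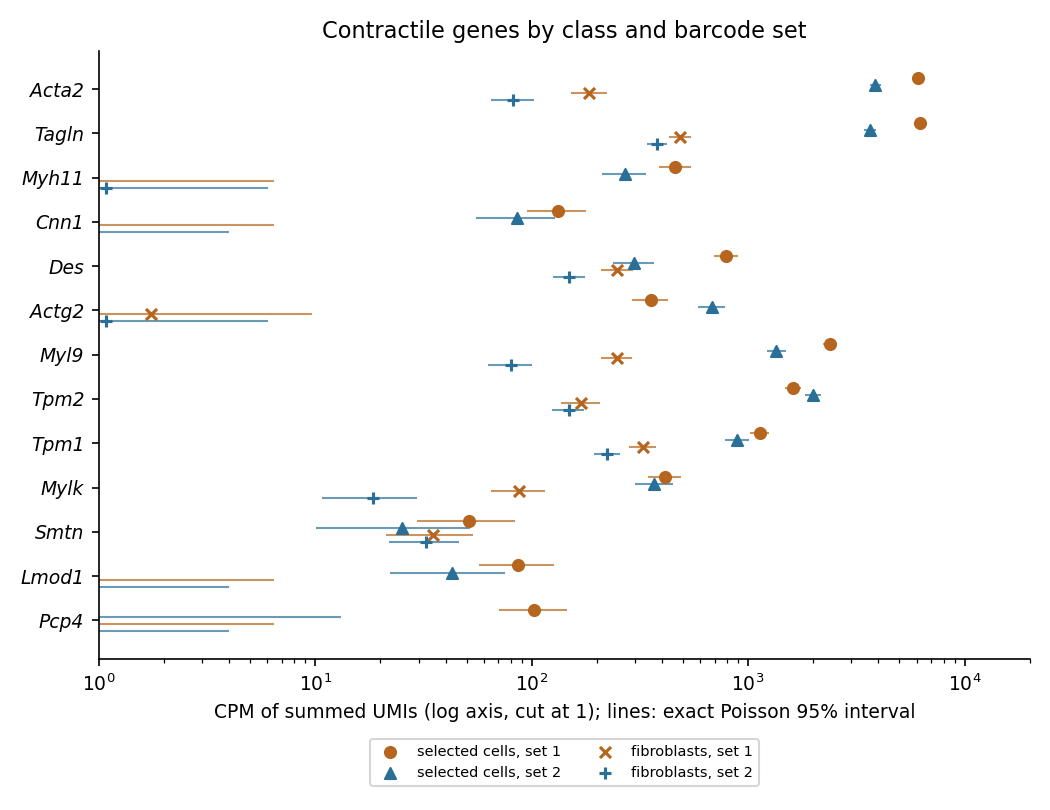
Levels of 13 contractile genes in contractile-gene cells and fibroblasts, by barcode set, as summed CPM on a log axis that is cut at 1, with lines for the 95% exact Poisson intervals. The first 6 genes were used by the rule. Myl9 stood at 2391 and 1350 CPM against 247 and 80.1, while Smtn, at 51.5 and 25.1 CPM against 34.8 and 32.5, lay close to the fibroblasts.

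Contractile genes that the rule did not use mostly stood higher as well, though not all of them. A gene was called past a 2-fold difference. Where a gene only had to reach 50 CPM in either class of a set, 7.0% of 3229 genes were higher and 5.17% lower in set 1, and 16.5% of 3667 genes were higher and 11.5% lower in set 2. In both sets at once 2.25% of 2883 genes were higher and 2.08% lower. A gene that passed only through the class in which it was high had to differ, so lists are counted over genes that reached 50 CPM in fibroblasts. By that measure 2.40% of 2787 genes were higher and 5.99% lower in set 1, and 6.14% of 2867 genes were higher and 14.6% lower in set 2. Of the 28 other contractile genes, 14 could be compared in each set. Of these, 11 were higher and none lower in set 1, with a median log2 ratio of 1.46 beside -0.07 over all genes. In set 2, 11 were higher and none lower, with a median of 1.65 beside -0.04.

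Among the genes of the contractile machine, Myl9, the regulatory light chain of myosin, whose promoter is printed above, stood at 2391 CPM in set 1 (2222 to 2569) and 1350 in set 2 (1217 to 1494), against 247 and 80.1 in fibroblasts. Its log2 ratio was 3.27 (95% exact interval 3.01 to 3.54) and 4.08 (3.71 to 4.46). Per cell, Myl9 ran from 0 to 9772 CPM in set 1 (median 1241) and from 0 to 8887 in set 2 (median 772). Tpm2, a tropomyosin that lies along the actin filament, stood at 1616 and 1995 CPM against 169 and 148, with log2 ratios of 3.26 (2.94 to 3.59) and 3.75 (3.48 to 4.03). Mylk, the kinase that phosphorylates that light chain, stood at 412 and 369 CPM against 87.1 and 18.4. Its ratio in set 2 (4.33, interval 3.58 to 5.16) lay above that in set 1 (2.24, interval 1.76 to 2.74), with the difference in the fibroblast level. Lmod1, the smooth muscle actin nucleator leiomodin, stood at 86.9 and 43.0 CPM and had no UMI in any fibroblast, which puts its log2 ratio at 4.06 or more and 3.73 or more against a floor of 3 UMIs.

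Genes of the contractile cell that many other cells also use differed less. The log2 ratios in set 1 and set 2 were 1.79 and 1.99 for Tpm1, 1.49 and 1.98 for the light chain Myl6, and 1.21 and 1.79 for Cald1, caldesmon. Flna, the actin cross-linker filamin A, had 2.57 and 1.67, and Csrp1, a LIM protein of actin bundles, had 1.59 and 1.63. Actn1 and Vcl, which anchor actin at adhesions, had 1.34 and 1.22, and 0.99 and 1.26. The ratios of Nexn (2.54 and 1.63) and Pdlim3 (2.01 and 2.59), both of actin-linked structures, lay above 2-fold in both sets. Pdlim7 (0.37 and 0.83) and Fhl1 (1.08 and 0.19) did not. The filament-binding stress proteins Hspb1 (1.43 and 0.55) and Cryab (0.65 and 1.14), passed 2-fold in 1 set each. Smtn, smoothelin, often used as a mark of fully contractile smooth muscle, had ratios of 0.56 (-0.48 to 1.59) and -0.37 (-1.80 to 0.84), so no difference was detectable at this depth. It is named here after its values were seen.

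Some contractile genes belonged to few cells or to 1 set. Pcp4, a calmodulin-binding peptide, stood at 103 CPM in set 1 from 5 cells, 1 of which held 40.6% of its UMIs, and at 0 in set 2, where 0 UMIs allow up to 13.2 CPM. Mustn1, a small nuclear protein of muscle, stood at 64.4 and 351 CPM against 0 and 54.1 in fibroblasts. Itga8, an integrin subunit, stood at 96.6 and 10.8 CPM. Myocd, the SRF partner myocardin, gave 4 and 5 UMIs in the contractile-gene cells and none in fibroblasts, and Srf itself stood at 67.6 and 39.4 CPM with log2 ratios of 0.96 and 0.54.

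The cells of set 1 also carried the fibroblast genes. Col1a2, a chain of collagen I, and Dcn, the proteoglycan decorin, were both at 1 or more in 28 of 33 contractile-gene cells of set 1 (84.8%, exact interval 68.1 to 94.9) and in 9 of 36 of set 2 (25%, 12.1 to 42.2). Dcn had a median of 5536 CPM per cell in set 1 (0 to 25488) and of 0 in set 2 (0 to 30231). Summed, it stood at 5951 CPM in set 1 (5682 to 6228) against 8479 in the fibroblasts, and at 1157 in set 2 (1034 to 1290) against 8981. With every cell thinned to 3000 UMIs, 96.9% of the contractile-gene cells of set 1 and 25.7% of those of set 2 held a Dcn UMI (32 of 33 and 12 of 36 unthinned). Thinning left out 1 shallower contractile-gene cell in each set, and 169 and 13 leukocytes. The leukocytes of the same sets stood at 5.33% and 5.92% and the endothelial cells at 12.1% and 10.7%. Epithelial cells, which were deeper (medians of 21949 and 16993.5 UMIs), held a Dcn UMI in 55.6% and 62.8% unthinned, at summed levels of 588.5 and 247 CPM. For most of set 1 the name smooth muscle and mural cells is therefore not borne out by these genes alone, since the same cells meet the Dcn and Col1a2 condition of the fibroblasts.

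Counted the other way, cells with Col1a2 and Dcn at 1 or more and the 3 marker genes at 0 numbered 106 in set 1 and 192 in set 2. Of these, 28 in set 1 (26.4%, 18.3 to 35.9) and 9 in set 2 (4.69%, 2.17 to 8.71) met the rule. Along the number of the 6 genes from 0 to 6, set 1 held 14, 46, 18, 15, 5, 4 and 4 such cells, and set 2 held 79, 79, 25, 4, 2, 3 and 0. The cells of set 1 thus lay along a range with no gap at the rule. Acta2 in these cells of set 1 was 22.2, 14.6, 704, 1411, 4705, 7132 and 15277 CPM along that order. Dcn was 9191, 8019, 9145, 6585, 5333, 8713 and 4451 CPM along the same order. Every cell of this series was chosen for Dcn, so its presence in those with all 6 contractile genes follows from that choice. Of the 5 cells of set 1 with all 6 genes, chosen without regard to Dcn, 4 held a Dcn UMI.

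**Figure D2:**
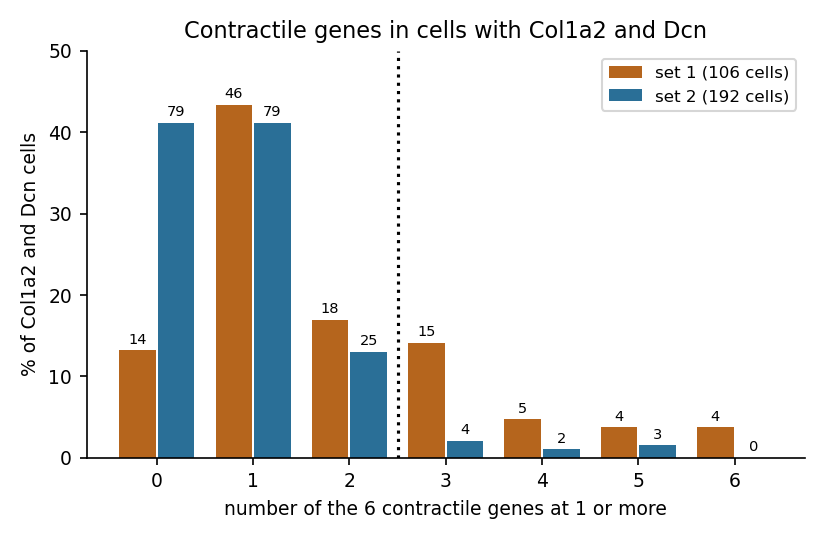
Share of the cells with Col1a2 and Dcn at 1 or more, in percent, by how many of the 6 contractile genes they held, with the number of cells above each bar and a dotted line where the rule begins. In barcode set 1 (106 cells) 28 lay at or past the rule, and in set 2 (192 cells) 9 did.

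Pericyte genes set the sets apart. Rgs5, a brake on G protein signalling and a defining marker of pericytes, stood at 22.5 CPM in set 1 (9.06 to 46.4) from 2 cells, and at 5753 CPM in set 2 (5475 to 6041) from 27 of 36 cells. Per cell of set 2 it ran from 0 over a median of 4747 to 18722 CPM, and no cell held more than 10.3% of its UMIs. In set 1 a single cell held 85.7% of them. At 3000 UMIs per cell 3.12% and 77.1% of the contractile-gene cells held an Rgs5 UMI, beside 0 of 525 (exact upper limit 0.700%) and 1.97% of leukocytes and 0 of 33 (upper limit 10.6%) and 9.82% of endothelial cells. The fibroblasts of set 2 stood at 182 CPM, from 6 of 183 cells, and those of set 1 at 0.

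Of the 15 pericyte genes, Rgs5 alone reached 50 CPM in fibroblasts, and only in set 2, so no count over the list is given and single genes follow. Notch3, the Notch receptor of mural cells, stood at 25.8 CPM in set 1 and 344 in set 2 against 3.48 and 9.74 in fibroblasts, with a log2 ratio in set 2 of 5.14 (4.16 to 6.31). Pdgfrb stood at 51.5 and 287 CPM against 45.3 and 37.9, with ratios of 0.19 (-0.81 to 1.14) and 2.92 (2.33 to 3.54). In set 1, then, Pdgfrb was not detectably apart from the fibroblasts. Cspg4, the surface proteoglycan NG2, had ratios of 0.64 and 3.39, and Mcam, the adhesion molecule CD146, had 2.11 and 4.55.

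Channel and mitochondrial genes of the list also stood higher in set 2. Abcc9 and Kcnj8, the regulatory and the pore subunit of a potassium channel gated by ATP, stood at 32.2 and 172 CPM and at 16.1 and 60.9 CPM. Ndufa4l2 and Cox4i2, alternative subunits of the mitochondrial respiratory chain, stood at 61.2 and 1118 CPM and at 9.66 and 537 CPM. In set 1, 1 cell held 89.5% of the Ndufa4l2 UMIs (17 of 19), which leaves 2 UMIs without it. Fibroblasts held 24.4 and 47.6 CPM of Ndufa4l2 and 27.9 and 32.5 CPM of Cox4i2, so their levels did not separate the sets in this way. Higd1b, another mitochondrial protein gene, was at 0 in set 1 and 183 CPM in set 2. Vtn, vitronectin, was at 0 and 32.2 CPM, and Rgs4 at 6.44 and 122. Gja4, the gap junction protein connexin 37, stood above fibroblasts in both sets, at 90.1 and 140 CPM against 6.97 and 6.49 (log2 ratios 3.69 and 4.43). Anpep, the aminopeptidase CD13, did not follow the list, with ratios of -0.70 and -0.67 from 6.44 and 14.3 CPM.

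**Figure D3:**
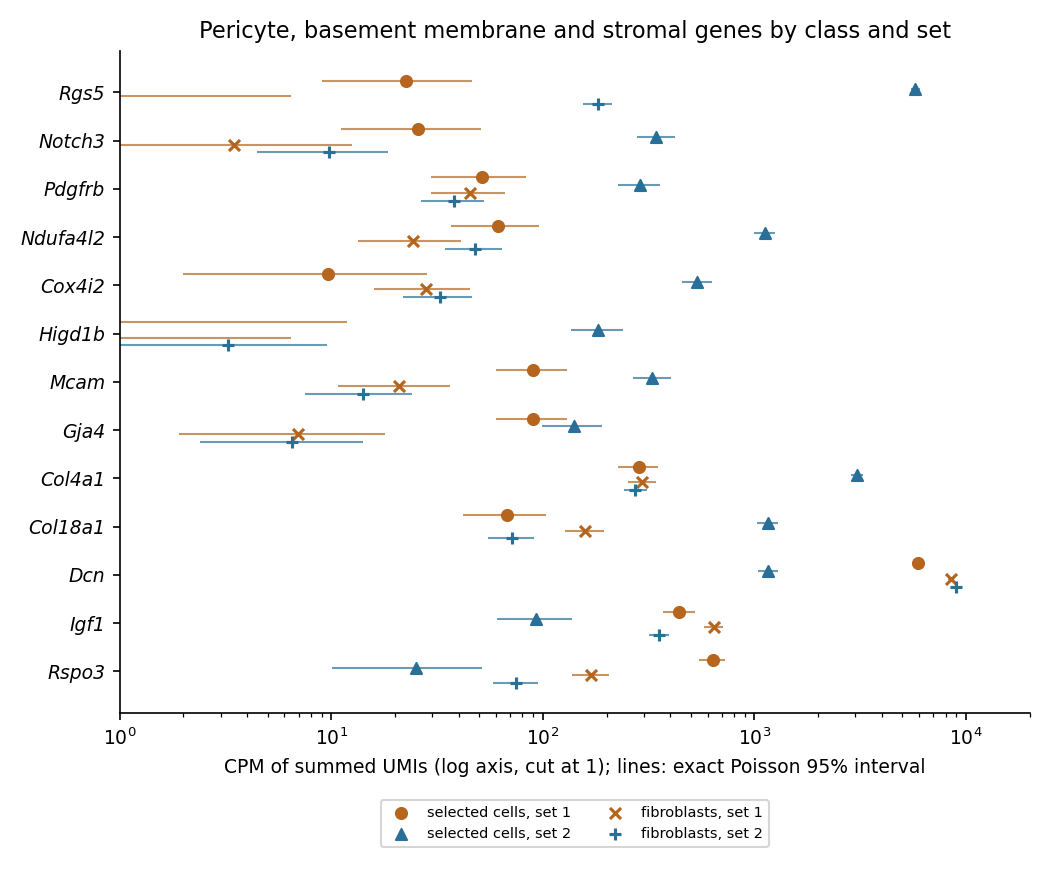
Levels of 13 pericyte, basement membrane, stromal and signalling genes in contractile-gene cells and fibroblasts, by barcode set, as summed CPM on a log axis cut at 1, with 95% exact Poisson intervals. Rgs5 stood at 22.5 CPM in set 1 and 5753 in set 2, and Dcn at 5951 and 1157.

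Each of the 69 cells was then placed on a pericyte or a muscle side, by whether it held more UMIs of 10 pericyte genes (Rgs5, Notch3, Kcnj8, Abcc9, Higd1b, Cox4i2, Pdgfrb, Cspg4, Ndufa4l2 and Vtn) or of 7 genes of visceral smooth muscle (Des, Actg2, Synm, Synpo2, Pgm5, Pcp4 and Ldb3). In set 1, 28 cells lay on the muscle side, 3 on the pericyte side and 2 were tied. In set 2, 28 lay on the pericyte side (77.8%, 60.9 to 89.9), 7 on the muscle side and 1 was tied. A side is a range along a score and not a cell type, and since each side lay mostly in 1 set, side and set cannot be told apart. The Col1a2 and Dcn condition was met by 23 of 28 muscle-side cells of set 1 and 5 of 7 of set 2, and by 4 of 28 pericyte-side cells of set 2.

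**Figure D4:**
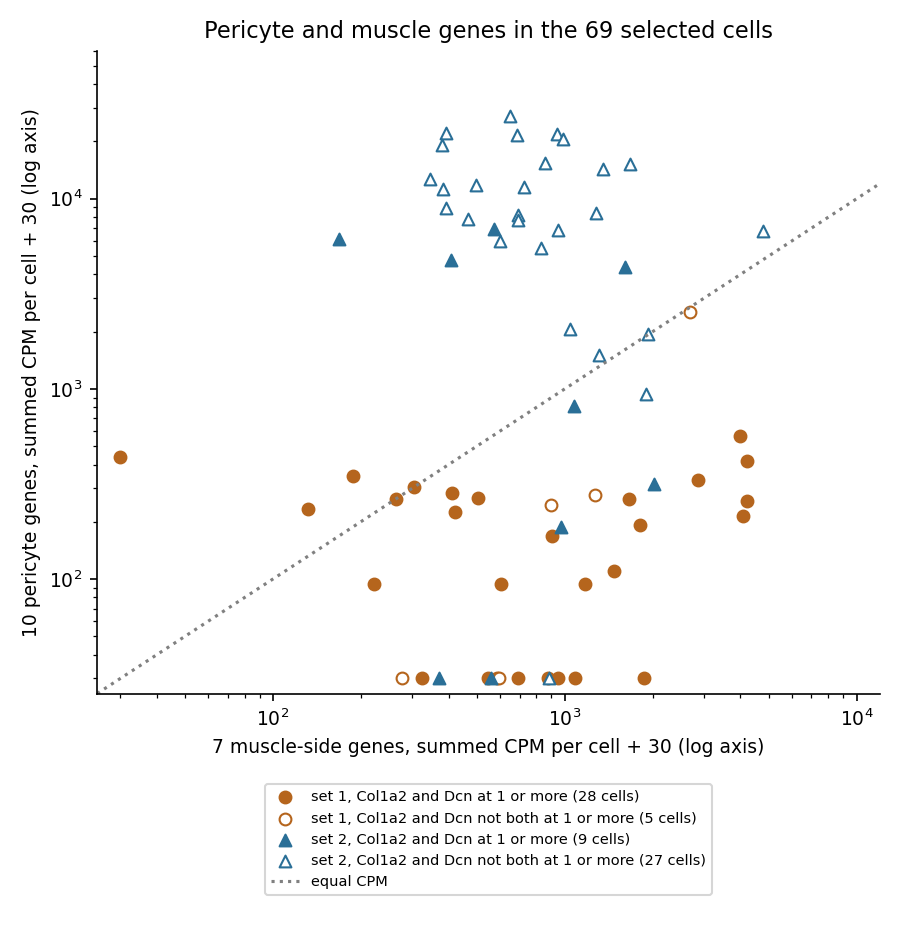
Each of the 69 cells by its summed level of 7 muscle-side genes (x) and 10 pericyte-side genes (y), in CPM plus 30 on log axes, with the dotted line where both are equal. Filled symbols also hold Col1a2 and Dcn at 1 or more. Circles of barcode set 1 lie mostly below the line (28 of 33 cells) and mostly filled, and triangles of set 2 lie mostly above it (28 of 36) and mostly open.

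Contractile genes were present on both sides, at levels that differed by gene. Acta2 stood at 3743 CPM on the pericyte side of set 2, 3218 on the muscle side of set 2 and 6474 on the muscle side of set 1. Myh11 stood at 235, 185 and 491 CPM in the same order, with a UMI in 17 of the 28 pericyte-side cells. Within set 2 the log2 ratio of the pericyte side over the muscle side was 0.22 (-0.02 to 0.46) for Acta2, 0.37 (0.12 to 0.63) for Tagln, 0.34 (-0.65 to 1.49) for Myh11, 0.31 (-0.03 to 0.65) for Tpm2 and -0.27 (-0.66 to 0.13) for Myl9. Past 2-fold there were Csrp1 at -1.42 (-1.76 to -1.07), Pdlim3 at -1.81 (-3.47 to -0.12), Mylk at 1.18 (0.19 to 2.36) and Mustn1 at 1.67 (0.37 to 3.34). Cnn1 had -1.37, with an interval that includes 0 (-2.68 to 0.02). These ratios rest on 7 muscle-side cells, fewer than the 20 planned for a ratio within a set. In 1 of the 7 stood all 9 Cnn1 UMIs of that side and 116 Acta2 UMIs, where the median of the 7 was 8. Against the muscle side of set 1 the ratios were -0.79 for Acta2, -0.83 for Tagln, -1.06 for Myh11, -1.09 for Cnn1 and -1.21 for Myl9, while Mylk had -0.15 and Tpm2 0.22. Rgs5 was in 27 of 28 pericyte-side cells and in none of the 7 muscle-side cells of set 2, which is in part how the sides were made.

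Outside the genes that made the split, and with the pericyte side of set 2 set beside the muscle side of set 1, the 10 highest genes were Klk8, Fabp7, Col5a3, Flt1, Fabp5, Col18a1, Fabp4, Arhgdib, Angptl2 and Olfml2a. Klk8, a secreted serine protease, stood at 658 CPM against 0 (111 on the muscle side of set 2), and Fabp7, a fatty acid-binding protein, at 414 against 0 (0 in set 2). Col5a3, a collagen V chain, stood at 396 against 3.61 CPM. Flt1, a receptor for VEGF, stood at 285 against 0, and Fabp4 and Fabp5, further fatty acid-binding proteins, at 364 against 7.22 and 916 against 25.3. Within set 2, where library is not a difference, these were also higher on the pericyte side, with log2 ratios of 2.57 for Klk8, 2.42 for Col5a3, 4.30 for Fabp4 and 1.54 for Fabp5, and of at least 2.90 for Fabp7. Arhgdib stood at 617 CPM against 74.0 on the muscle side of set 2. Angptl2 and Olfml2a, both secreted proteins, stood at 253 and 249 CPM on the pericyte side against 3.61 and 3.61 on the muscle side of set 1. Of the 28 pericyte-side cells of set 2, 7 held 2 or more of 8 endothelial markers. On the muscle side 1 of 28 cells of set 1 and 1 of 7 of set 2 did. The part of these cells in the levels of Flt1, Fabp4 and the other genes was not tested.

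The 10 lowest were Cd74, Ptn, H2-Eb1, Smoc2, Rspo3, H2-Aa, Igfbp2, Ptgis, Rbp4 and Mfap4, of which Cd74, H2-Eb1 and H2-Aa belong to antigen presentation. Cd74 stood at 4.60 CPM on the pericyte side of set 2, 0 on the muscle side of set 2 and 3138 on that of set 1. Ptn, the growth factor pleiotrophin, was at 0 on the pericyte side of set 2, at 795 CPM on the muscle side of set 2 and at 1116 on that of set 1. Smoc2, a calcium-binding matrix protein, followed the same order with 0, 425 and 617 CPM, and Igfbp2, a binder of insulin-like growth factors, with 0, 259 and 538. Mfap4, a protein of elastic microfibrils, stood at 13.8, 277 and 1191 CPM. Ptgis, which makes prostacyclin, stood at 4.60, 74.0 and 762, and Rbp4, a retinol carrier, at 0, 37.0 and 509. Ptn, Smoc2, Igfbp2 and Mfap4 were thus lower on the pericyte side within set 2 as well as between the sets. The muscle side of set 2 held only 7 cells, and 1 of them held 307 Col1a2 and 482 Col1a1 UMIs, 48.4% and 49.8% of those of all contractile-gene cells of that set.

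The cells with all 6 genes of the rule were few. The 5 of set 1 held 17314 CPM of Acta2, 13538 of Tagln, 1676 of Myh11, 5903 of Myl9, 4226 of Tpm2 and 493 of Cnn1. They also held 268 CPM of Lmod1 and 310 of Pcp4, with 22 of the 32 Pcp4 UMIs of the set. Dcn stood at 3649 CPM in them, in 4 of 5 cells. The single such cell of set 2 held 6212 CPM of Acta2 and 3894 of Actg2 together with 3523 of Rgs5, and no Dcn. Among cells of set 2 the highest Acta2 was 14315 CPM, so that cell did not hold the highest level.

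The genes of the basement membrane, the sheet of collagen IV and laminin that mural cells share with endothelium, also separated the sets. Of 15 such genes, 12 could be compared in each set, with 2 higher and 2 lower than in fibroblasts in set 1 (median log2 ratio 0.01) and 5 higher and 1 lower in set 2 (median 0.38). Over all genes compared in this way, 2.40% were higher and 5.99% lower in set 1, and 6.14% higher and 14.6% lower in set 2. Col4a1, a collagen IV chain, stood at 283 CPM in set 1 (227 to 349) against 294 in fibroblasts, and at 3048 in set 2 (2847 to 3260) against 274. Its per-cell median was 191 CPM (0 to 701) in set 1 and 2174 (0 to 12937) in set 2, and 20 of 33 and 33 of 36 cells held it. Its log2 ratio was -0.06 (-0.44 to 0.32) and 3.48 (3.27 to 3.68). The partner chain Col4a2 followed it at 93.3 and 1347 CPM against 118 and 118. Summed over the 15 genes, contractile-gene cells stood at 7277 CPM in set 1 and 14922 in set 2, and fibroblasts at 4945 and 4433. Endothelial cells stood at 7180 and 14132 CPM, so neither the summed level nor its difference between the sets was particular to the contractile-gene cells.

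Col18a1, the collagen from which endostatin is cut, had opposite ratios, -1.23 (-1.99 to -0.53) in set 1 and 4.01 (3.63 to 4.42) in set 2. Nid1 and Nid2, which link collagen IV to laminin, had 0.07 and 1.51, and -0.28 and 3.59. Sparc, a matrix protein that binds collagen, had 0.62 and 1.68. Lamb2, a laminin chain, went the other way at 348 and 96.7 CPM, with ratios of 1.07 and -0.53. Within set 2 the pericyte side stood above the muscle side by log2 3.04 for Col4a1, 2.49 for Col4a2 and 3.28 for Col18a1. On the muscle side Col4a1 was 282 CPM in set 1 and 462 in set 2. The values of the muscle side of set 2, and so these ratios, rest on 7 cells. In 1 of the 7 stood 19 Col4a1 UMIs, and the median of the 7 was 157 CPM.

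The interstitial matrix of fibroblasts was kept in set 1 and mostly low in set 2. Of 23 genes 21 could be compared in set 1, with none higher and 5 lower (median log2 ratio -0.27), and 22 in set 2, with 6 higher and 13 lower (median -2.44). The shares over all genes were 2.40% higher and 5.99% lower in set 1, and 6.14% and 14.6% in set 2. Pdgfra, the receptor that marks fibroblasts, stood at 148 and 10.8 CPM against 185 and 144. Gsn, the actin-severing gelsolin, stood at 8168 and 1322 against 9026 and 5886, and Mfap5, a microfibril protein, at 435 and 46.6 against 348 and 1010. Genes for complement C3 (log2 ratios -0.07 and -3.36), Fbln1, fibulin 1 (-0.19 and -2.87), and Lox, which cross-links collagen and elastin (0.72 and -3.35), showed the same split. Not every matrix gene was low in set 2. Genes of the fibrillar collagens had ratios of 0.24 and 1.60 for Col1a1 and 0.52 and 0.86 for Col3a1, though the single cell named above held 49.8% of the UMIs of Col1a1 in set 2. Other collagen chains were past 2-fold higher in set 2 only, with ratios of 0.55 and 2.64 for Col6a3, -0.63 and 1.48 for Col5a1, and 0.08 and 1.31 for Col5a2. Tnc, tenascin C, was higher in both sets, at 119 and 294 CPM against 38.3 and 50.9.

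Secreted factors of the stroma were compared as the route by which muscle and fibroblasts address the epithelium. Of 26 growth factor and Wnt genes, 14 could be compared in set 1, with 2 higher and 4 lower, and 16 in set 2, with 1 higher and 11 lower. The shares over all genes were 2.40% higher and 5.99% lower in set 1, and 6.14% and 14.6% in set 2. Igf1, insulin-like growth factor 1, stood at 441 CPM in set 1 (370 to 521) against 641, and at 93.1 in set 2 (60.8 to 137) against 354. Its log2 ratio was -0.54 (-0.83 to -0.25) and -1.93 (-2.56 to -1.35), so the summed level of both sets lay under that of their fibroblasts. Per cell this did not hold in set 1, where the median was 369 CPM against 275.5 in fibroblasts. In set 2 the median was 0 against 203 CPM. Rspo3, which amplifies Wnt signals, stood at 634 CPM in set 1 against 169, from 25 of 33 cells, and at 25.1 in set 2 against 74.7, from 4 of 36. Without the 28 cells of set 1 that held Col1a2 and Dcn, that ratio of 1.91 was -1.38. Only 5 cells with 30817 UMIs in all were then left, and no interval is given, so the value is a rough one. Sfrp2, a secreted Wnt modulator, followed with 1.31 and -1.04 (-0.78 in set 1 over the same 5 cells). Wnt2, a Wnt ligand, was lower in both sets (-1.59 and -2.55).

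Pdgfa, a ligand of the PDGF family, was higher in both sets, at 103 and 287 CPM against 20.9 and 33.6 (log2 ratios 2.30 and 3.09). Igfbp3 was lower in both (-2.63 and -1.93), as was Igfbp5 (-1.14 and -1.06), both binders of insulin-like growth factors. Igfbp7 was near its fibroblast level in set 1 and above it in set 2, at 7338 and 13987 CPM against 7006 and 6610. Cxcl12, the chemokine that holds haematopoietic cells, had -0.20 and -1.96, and Vegfa, the endothelial growth factor, 0.06 and -2.41. Tgfb2, a transforming growth factor, stood at 57.9 and 315 CPM with ratios of 0.36 and 0.83.

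Transcription factors gave thinner counts. Ebf1, a transcription factor of pericytes and stroma, had log2 ratios of -1.62 and 2.33. Foxs1, a forkhead factor, had 0.72 and 2.78, and Mef2c, an SRF-associated muscle factor, had 2.37 and 2.46. Klf4, which opposes the contractile programme, had -0.02 and -1.16.

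Notch pathway genes could be compared for 2 of 11 in each set, Jag1 and Hes1, with none past 2-fold. Nrarp, a Notch target that dampens the pathway, stood at 208 CPM in set 2 from 10 cells, 1 of which held 44.8% of its UMIs. Jag1, a Notch ligand, had ratios of -0.83 and 0.76. Of 15 ion channel and calcium-handling genes, 1 and 2 could be compared, with none higher in set 1 and 1 in set 2. Cacna2d1, a calcium channel subunit, had 1.37 and 1.42, and Ano1, a chloride channel opened by calcium, had 1.89 and 2.80. Atp2a2, the calcium pump of the reticulum, had 0.04 and -0.06. Gucy1b3, a subunit of the nitric oxide receptor, had 0.15 and 2.35.

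Outside the 6 genes of the rule and over both sets, the genes highest over fibroblasts by the mean of the sets were Myl9, Tpm2, Postn, Mylk, Gja4, Mcam, Mustn1, Ndufa4l2, S1pr3 and Tinagl1. Postn, the matrix protein periostin, stood at 132 and 899 CPM against 12.2 and 74.7, from 4 cells of set 1, 1 of which held 63.4% of its UMIs, and 22 cells of set 2. S1pr3, a receptor for sphingosine 1-phosphate, had log2 ratios of 1.84 and 4.07. Tinagl1, a protein of the basement membrane, stood at 151 and 154 CPM against 15.7 and 26. Ndufa4l2 in set 1 rested on 1 cell, as given above.

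At the low end were Pi16, Cxcl2, Mmp3, Cxcl1, Nrg1, Dnm1, Ptx3, Igfbp4, Apod and Cd34. The chemokines Cxcl1 and Cxcl2, which draw neutrophils, stood at 93.3 and 208 CPM and at 9.66 and 10.8 CPM against 1049 and 1223 and against 209 and 360 in fibroblasts. Pi16 and Cd34, markers of a stromal progenitor state, had log2 ratios of -2.09 and -7.96 and of -1.64 and -4.30. Nrg1, a ligand of ErbB receptors, had -4.49 and -4.32, and Ptx3, a secreted pentraxin, -4.64 and -3.43. Mmp3, a matrix protease, stood at 22.5 and 0 CPM against 106 and 283. Over all genes at 50 CPM in fibroblasts, 5.99% were lower in set 1 and 14.6% in set 2. Of 10 immediate early genes none was higher, and 1 was lower in set 1 and 4 in set 2, with medians of -0.38 and -0.85. Fos among them had -1.12 and -1.28.

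**Figure D5:**
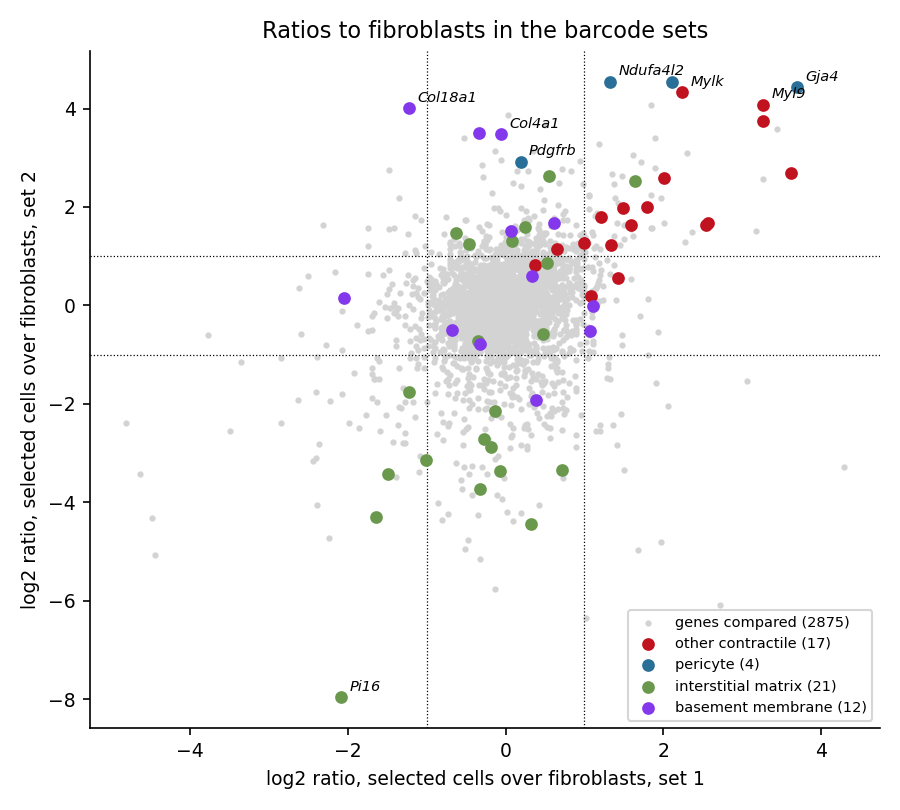
Log2 ratio of contractile-gene cells over fibroblasts in barcode set 1 (x) against set 2 (y) for 2875 genes, without the 6 genes of the rule, Col1a2 and Dcn, with dotted lines at 2-fold. A gene entered at 50 CPM in either class. Contractile genes (17) lie to the upper right, where 12 pass 2-fold in both sets, beside 65 of all 2883 genes (2.25%). A gene admitted only through the class in which it was high had to differ. Pericyte genes (4), all admitted through the contractile-gene cells, lie high on the y axis. Many of the 21 interstitial matrix genes lie below 0 in set 2 with little difference in set 1.

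Set beside each other directly, 19.2% of 3719 genes were at least 2-fold higher in the contractile-gene cells of set 2 than in those of set 1, and 14.6% were lower. A gene entered at 50 CPM in either set. Of 25 other contractile genes 4 were higher and 7 lower, and of 20 interstitial genes 8 were higher and 10 lower. Rgs5 was higher by 8.0 on the log2 scale (6.95 to 9.31), and in fibroblasts, with no UMI in set 1, by at least 5.12. The Rgs5 UMIs of the fibroblasts of set 2 lay in 6 of 183 cells, 1 of which held 96. Col4a1 was higher by 3.43 (3.11 to 3.76), where the fibroblasts differed by -0.10 and the leukocytes by 0.72. Col18a1 was higher by 4.09, where they differed by -1.15 and 2.56. Dcn was lower by 2.36 on that scale, beside 0.08 in fibroblasts and -0.05 in leukocytes. For Col4a1, Col18a1 and Dcn the fibroblasts of the same libraries thus did not differ in the same way, while for Rgs5 their summed level differed in the same direction, through those few cells. The endothelial cells were also higher in set 2 in the summed basement membrane genes, at 14132 CPM against 7180 in set 1.

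Some other differences between the sets were shared with further classes and some were not. Fn1, fibronectin, stood at 51.5 and 1164 CPM, a log2 ratio of 4.50, and fibroblasts and leukocytes differed by 3.86 and 3.74. Cd74, the chaperone of class II antigen presentation, stood at 2803 and 3.58 CPM in the contractile-gene cells. The epithelial cells of the sets held 3489 and 24.7 CPM of it and the endothelial cells of set 1 held 4292, while leukocytes, which make it, held 6556 and 9768. In set 1 the contractile-gene cells held it in 25 of 33, and 5 cells held 634 of its 871 UMIs. H2-Aa, a class II chain, stood at 747 and 7.16 CPM. Il33, an alarmin of stromal nuclei, stood at 640 and 7.16 CPM while fibroblasts stood at 200.3 and 225, and Vcam1, an adhesion receptor for leukocytes, at 1226 and 39.4 while fibroblasts stood at 982 and 246. Fn1, Il33, Vcam1 and H2-Aa are named here after their values were seen. Whether tissue, library or the makeup of the cells went with these differences cannot be told apart.

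Markers of other cell types were present in the contractile-gene cells, since only 3 such genes had to be at 0. Of 8 endothelial markers, 4 had a UMI in set 1 and all 8 in set 2, with 2 or more of them in 2 of 33 and 8 of 36 cells, beside 7 of 78 and 5 of 183 fibroblasts. Their summed level was 109 and 283 CPM beside 127 and 120 in fibroblasts. Of 8 leukocyte markers, 2 of 8 and 7 of 8 were seen, with a summed level of 2810 CPM in set 1, nearly all Cd74, and 93.1 in set 2, beside 745.5 and 559 in fibroblasts and 8400 and 31724 in leukocytes. A single cell of set 1 held up to 179 of their UMIs. Luminal epithelial markers were found in 27 of 33 and 34 of 36 cells and basal markers in 18 and 25, and luminal markers summed to 267 and 831 CPM, beside 625 and 1097 in fibroblasts. Their part in the results was not tested. No doublet caller was run here, and per the study multiplets were removed before deposit.

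The mGFP reporter was compared with leukocytes as background. At 3000 UMIs per cell 3.12% (1 of 32 cells, 0.0791 to 16.2) and 45.7% (28.8 to 63.4) of the contractile-gene cells held an mGFP UMI, beside 9.14% (6.82 to 11.9) and 57.9% (49.6 to 65.9) of leukocytes, and these intervals overlap. Unthinned, the shares were 15.2% and 83.3%, beside 14.0% and 86.1% of leukocytes, so no level of mGFP above that of leukocytes was detectable at this depth. Summed levels were 19.3 and 211 CPM for mGFP, where epithelial cells held 1223 and 9827. Median depths were 8858 and 6929 UMIs in the contractile-gene cells and 3795.5 and 7484 in leukocytes. Osr1, whose promoter drives Cre in these mice, gave 6.44 and 0 CPM.

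Cells just outside the rule were compared with those just inside. Cells with exactly 2 of the 6 genes numbered 24 in set 1 and 42 in set 2, and cells with exactly 3 numbered 17 and 16. Acta2 was 644 CPM just outside and 1391 just inside the rule in set 1, and 1013 and 3095 in set 2. In set 2, Dcn was 8363 CPM just outside and 1931 just inside, and Rgs5 was 1980 and 5802. In set 1, Dcn was 8994 and 6581 CPM and Rgs5 was at 0 on both sides of the rule.

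Of the cells of set 2 with 10 or more Rgs5 UMIs, 95 in all, 69 had Epcam, Ptprc and Krt5 at 0, and 25 of these met the rule. The other 44 held 0, 1 or 2 of the 6 genes in 13, 24 and 7 cells. Among those 44, 4 met the fibroblast condition and 8 held 3 or more endothelial markers. In set 1, 25 cells held 10 or more Rgs5 UMIs and each of them also held Epcam, Ptprc or Krt5. A rule on contractile genes therefore described the Rgs5 cells that also held those genes, and not all Rgs5 cells of the table.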

How the data were processed

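Single cells from prostate tissue with PIN and with PCa were profiled by 10x Genomics Chromium 3' sequencing (v2 chemistry), 1 library per tissue. Per the submitters' processing notes and the study's methods, reads were counted with Cell Ranger 3.1.0 on mm10 with the mGFP and hARtg sequences added, and the authors removed empty droplets, multiplets and cells with a high mitochondrial share. Tissue was digested with collagenase and TrypLE. The deposited table (15742 cells, 19320 features) holds natural log values, ln(1 + 10000 × UMIs / total UMIs of the cell), made by the authors. The UMIs were recovered from it, and 100% of 56988269 values above 0 came out whole within 0.001. The lowest cell held 1002 genes. Barcode endings were not assigned to a tissue, since no label or column name ties them. The cell number of set 1 equals the study's final number for PIN, and that of set 2 is 2 below its number for PCa, which was not used to assign either. The feature EGFP was read as mGFP by name. Some items of the table are not reported here.

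Contractile-gene cells and fibroblasts were chosen by the conditions given above. UMIs were summed per class and barcode set as CPM with exact Poisson intervals, shares have exact Clopper-Pearson intervals, and log2 ratios have exact conditional binomial intervals, all at 95% and for counting error only. Where a class had no UMI of a gene, 3 UMIs over that class stood in as the floor, and the ratio is then a bound. No ratio was formed where both classes held 3 UMIs or fewer. With 1 library per set there was no test. To compare shares of cells, each cell was thinned to 3000 UMIs. Calculations used Python 3.11.15 with numpy 2.4.6, scipy 1.17.1, pandas 2.3.3 and matplotlib 3.10.9, and the ratio script was tested on simulated data. Promoters came from a RefSeq table of GRCm38.p6.

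The cells, gene lists and comparisons were chosen with earlier results of these data known. Values are given for the genes of the rule and for part of the list genes with at least 30 UMIs in the contractile-gene cells. Not every list gene with that many UMIs is given. The 10 highest and 10 lowest genes by mean log2((CPM + 10)/(CPM + 10)) against fibroblasts and between the sides are all named, though not each with a value. Other genes are named as chosen after their values were seen, which holds also for Smtn, Myocd, Pcp4 and the genes that most differed between the sets. Counts by list within a set used genes at 50 CPM in the fibroblasts of that set, a choice made after seeing the data. Alternatives were a cut of 1 UMI, at least 4 genes, cells without Col1a2 and Dcn, cells with fewer endothelial markers, equal weight per cell, scaling without abundant genes, other CPM and fold limits, other fibroblasts, a split by Rgs5, a side that needs 2 times the other, and, added after seeing the data, leaving out the cell with the most UMIs.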

Additional observations from a re-analysis of the deposited data

Results flagged for a closer look

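The ratios to fibroblasts of the 5 genes below pointed in opposite directions in the barcode sets, past 2-fold in each. They are not all such genes. Ebf1, given above, did so too, and Chil1 had log2 ratios of 4.29 and -3.29, Smoc2 3.06 and -1.54, and Wisp2 2.72 and -6.08. The difference itself was not tested, since each set was 1 library. Col18a1 had a log2 ratio of -1.23 in set 1 and 4.01 in set 2. Rspo3 had 1.91 and -1.57, and Sfrp2 had 1.31 and -1.04. Without the cells holding Col1a2 and Dcn the ratios of set 1 turned to -1.38 and -0.78, over only 5 cells with 30817 UMIs in all and without an interval. Cd74 had 1.97 and -4.81, with 5 cells of set 1 holding 634 of its 871 UMIs there. Cd24a, a surface protein of epithelial cells, had -2.31 and 1.64, from 19.3 and 297 CPM against 95.8 and 95.2 in fibroblasts. That pattern was not stable, since the ratio of set 1 was 0.02 without the cells holding Col1a2 and Dcn, over the same 5 cells. The ratio of set 2 was -0.25 against fibroblasts chosen without the zero condition.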

How the results depend on the processing

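No paired analysis was possible because PIN and PCa were 1 library each and the barcode sets carry no shared numbering. Of the alternatives, 66 summary values stayed within their limits and 19 moved, and among values of single genes or shares 590 stayed, 163 moved and 4 changed sign. With at least 4 of the 6 genes the cells were 0.253% of set 1 (16 cells) and 0.213% of set 2 (20 cells). Without cells holding Col1a2 and Dcn, set 1 kept 5 cells (0.0790%), of which 0% lay on the pericyte side. Genes at least 2-fold higher in both sets numbered 65, against 130 with at least 4 genes, 199 without the Col1a2 and Dcn cells, 151 at 20 CPM, 162 at 1.5-fold and 15 at 4-fold. Those lower in both numbered 60, against 96, 123, 124, 136 and 12 in the same order. Without the Col1a2 and Dcn cells, median log2 ratios in set 1 were taken over genes at 50 CPM in either class. The median was 2.40 for the other contractile genes (1.79 with all cells). For the pericyte genes it was 4.58 (1.72 with all cells, 2.69 with at least 4 genes). No pericyte gene reached 50 CPM in the fibroblasts of set 1, so these genes entered only through the contractile-gene cells. Of the 5 cells behind the 4.58, 1 held 32 UMIs of the pericyte genes that made the sides. None of the others held more than 1, so the 4.58 describes mostly that cell. The pericyte median of set 2, over genes that mostly entered through the contractile-gene cells, was 4.24, against 3.42 with fibroblasts chosen without the zero condition and 4.98 (Rgs5 alone) with genes at 50 CPM in fibroblasts. In set 1 without the Col1a2 and Dcn cells, Rspo3 stood at -1.38, Sfrp2 at -0.78 and Cd24a at 0.02, and Cd24a in set 2 stood at -0.25 against fibroblasts chosen without the zero condition. The cause was not tested in any of these. Leaving out the cell with the most UMIs in each set and the filter on fibroblasts were chosen after seeing the data. Depth limits the rarer genes, since 0 UMIs in the contractile-gene cells of a set allow up to 11.9 CPM in set 1 and 13.2 in set 2.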
